A study of Mus musculus with 9 samples.

Results

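The 4 tropomyosin genes (Tpm1, Tpm2, Tpm3 and Tpm4), 4 heavy chain genes of nonmuscle or smooth-muscle myosin II (Myh9, Myh10, Myh11 and Myh14), the regulatory light chain gene Myl9 and the light chain kinase gene Mylk were described in whole mouse corneas measured on single-colour expression arrays. They are 10 of the 22180 genes that had at least 1 array row annotated with exactly 1 gene symbol. They had 12 such rows, and for Tpm3 and Tpm4, with 2 rows each, the row with the higher mean over the 9 arrays stood for the gene. Rescued mice carried the Dstn corn1 mutation together with genetic ablation of Srf in the corneal epithelium. Mutant mice carried Dstn corn1, a mutant allele of the gene for the actin depolymerising factor destrin. WT mice were wild type. All groups were on a mixed background (FVB, Swiss Black, 129, C57BL6/J and A.BY), received doxycycline by injection between postnatal days 28 and 58 and were examined at postnatal day 58. Every group had 3 biological replicates, each a pool of 10 corneas from 5 mice, and no source used here names the promoter that drove the ablation.

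Myosin II is the motor that pulls on actin filaments. Each motor has a pair of heavy chains, and the motor is switched on when a kinase phosphorylates its regulatory light chains. Tropomyosins are coiled-coil dimers that lie along actin filaments, influence which myosins can bind and shield filaments from severing by proteins of the cofilin family, to which destrin belongs. Serum response factor (SRF), encoded by Srf, is a transcription factor that binds the CArG box and, with its MRTF cofactors, responds to the pool of unpolymerised actin. In the cornea, actomyosin is found in the epithelium, in stromal cells after injury and in the walls of blood vessels.

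The authors' normalised values are on a log scale whose base, 2, was inferred from the range. Dstn separated the genotypes as labelled, with log2 intensities of 5.61, 5.62 and 5.63 in rescued pools, 5.55, 5.80 and 5.54 in mutant pools and 12.58, 12.55 and 12.59 in WT pools. Srf had log2 intensities of 9.14, 9.45 and 8.45 in rescued pools, 10.77, 10.72 and 10.55 in mutant pools and 9.23, 8.98 and 9.17 in WT pools. Rescued and WT pools therefore overlapped in Srf, while the mutant pools lay above both. Corneal epithelial markers (8 measured) and keratocyte markers (9 measured) were all brighter than the median of all rows, 6.77, on every array. The array medians lay between 6.75 and 6.78. Because whole corneas were measured, fewer cells of a type and less RNA per cell cannot be told apart in any value below.

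The upstream sequences of Myl9 and Tpm1 are shown because these genes had the largest differences between the groups and because both hold CArG boxes, exact or nearly so. RefSeq promoter sequence (GRCm38.p6) was matched for 9 of the 10 genes, Myh11 being the exception, and the 250 bases before each annotated start were searched. Capitals mark the exact box of Myl9 and the boxes of Tpm1 with 1 mismatch, each 10 bases long. Myl9 also had 1 box with 1 mismatch, which is not marked. The Myl9 sequence is the plus strand of chr2:156775214-156775463, and the Tpm1 sequence is the minus strand of chr9:67049214-67049463.
Myl9: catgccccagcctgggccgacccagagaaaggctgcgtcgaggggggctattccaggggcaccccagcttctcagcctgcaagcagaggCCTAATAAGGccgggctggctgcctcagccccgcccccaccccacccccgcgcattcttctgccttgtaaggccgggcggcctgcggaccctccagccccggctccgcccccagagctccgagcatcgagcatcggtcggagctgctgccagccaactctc
Tpm1: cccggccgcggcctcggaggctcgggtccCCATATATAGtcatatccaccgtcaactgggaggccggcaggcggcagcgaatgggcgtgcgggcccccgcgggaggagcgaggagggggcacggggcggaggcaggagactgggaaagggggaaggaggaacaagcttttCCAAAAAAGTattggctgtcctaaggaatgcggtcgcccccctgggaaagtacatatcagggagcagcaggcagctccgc
An exact CArG box, whose consensus is the same on both strands, began 161 bases before the start of Myl9. Of the 9 genes, 1 had an exact box, while 1.47% of the 32851 mouse promoter windows of the same length did. In Tpm1 the boxes began 221 and 80 bases before the start and each had 1 mismatch. With up to 1 mismatch allowed, 3 of the 9 genes (Tpm1, Tpm3 and Myl9) had a box, against 18.6% of all windows. The 9 genes had 10 windows, since Tpm3 had more than 1, so counts of genes and shares of windows are not like for like. The TEAD motif CATTCC, searched on both strands, was in the windows of Tpm1, Mylk and Myh10 and in 12.6% of all windows. A match describes these letters only, and no binding was measured.

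Mutant and WT corneas were compared to see how these genes differ when Dstn is mutated. Of the 10 genes, 7 were higher and 2 were lower in mutant corneas at a Benjamini-Hochberg adjusted p under 0.05 (limma, all 22180 genes), where 31.6% of all genes passed, 15.1% higher and 16.5% lower. All 4 tropomyosin genes, Myl9, Myh9 and Myh11 were higher, Mylk and Myh14 were lower, and Myh10 did not pass. Tpm3 is counted by its brighter row, and the gene behind that row is uncertain. Its other row did not pass where all rows were fitted (log2 difference 0.14, adjusted p = 0.306). The median log2 difference of the 10 genes was 0.75, beside −0.02 over all genes. In all 10 genes the 3 mutant pools lay wholly above or wholly below the 3 WT pools, as they did in 44.7% of all genes. Rescued and mutant corneas were compared to see how they differ when epithelial Srf is ablated on the mutant background. In rescued corneas 6 genes were lower and 3 were higher, and 13.3% of all genes passed, 6.88% lower and 6.46% higher. The pools were apart in 10 of the 10 genes, and in 32.2% of all genes. The comparison shares its mutant arrays with the previous one. Between rescued and WT corneas 5 genes were higher and 1 was lower, where 13.7% of all genes passed, 6.28% higher and 7.43% lower, and the pools were apart in 6 genes, against 31.6% of all genes. Leaving out 1 array took the called genes to as few as 4 between rescued and mutant (without mutant replicate 1; 5 without mutant replicate 3 or rescued replicate 3) and to 3 between rescued and WT (without rescued replicate 1 or 2 or WT replicate 1 or 2), while all 9 between mutant and WT stayed. Calls of at least 2-fold numbered 4 of 10 between mutant and WT (5.03% of all genes), 2 of 10 between rescued and mutant (1.41%) and 1 of 10 between rescued and WT (1.68%).

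**Figure D1:**
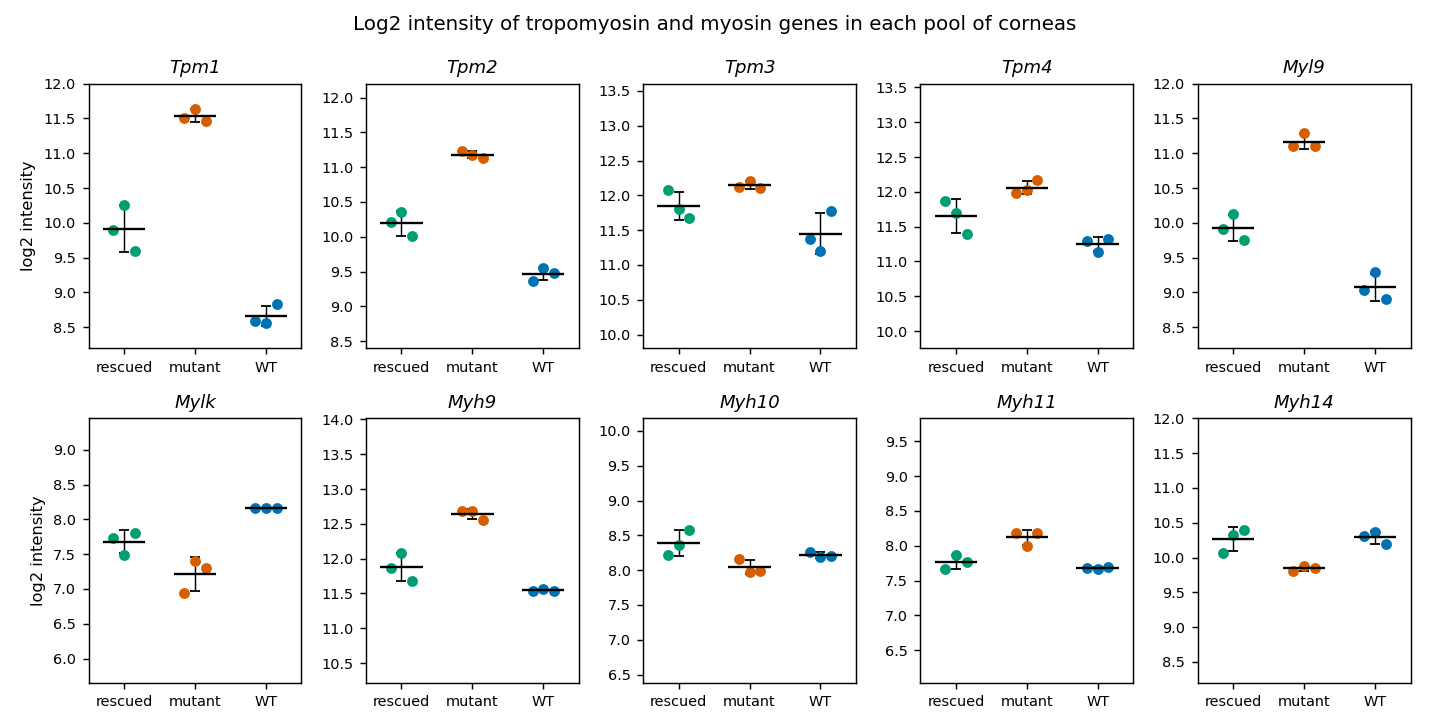
Log2 intensity (vertical axis, the same span of units in each panel) of each gene in the 3 rescued, 3 mutant and 3 WT pools; points are pools, bars are group means and error bars are SDs. The mutant pools of Tpm1 lie between 11.46 and 11.64, above the rescued pools (9.59 to 10.26) and the WT pools (8.56 to 8.83), whereas the mutant pools of Mylk (6.94 to 7.40) lie below both other groups.

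Tpm1 and Tpm2 encode the tropomyosins best known from striated and smooth muscle, and other cells make further isoforms from the same genes. Tpm1 (probe set 17528430) had log2 intensities of 9.90, 10.26 and 9.59 in rescued pools, 11.51, 11.64 and 11.46 in mutant pools and 8.59, 8.56 and 8.83 in WT pools. No group overlapped another, and the rescued pools lay between the other groups. Tpm1 was 7.33-fold higher in mutant corneas than in WT (log2 difference 2.87, SE 0.15, adjusted p = 1.37e-06), the 73rd highest difference among the 22180 genes. In rescued corneas it was 3.07-fold lower than in mutant corneas (log2 difference −1.62, SE 0.15, adjusted p = 0.000184) and stayed 2.39-fold higher than in WT corneas (adjusted p = 0.000776).

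Tpm2 (probe set 17424656) was at 10.21, 10.36 and 10.01 in rescued pools, 11.23, 11.18 and 11.13 in mutant pools and 9.37, 9.55 and 9.48 in WT pools. The order of the groups was that of Tpm1, again without overlap. Tpm2 was 3.29-fold higher in mutant corneas than in WT (log2 difference 1.72, SE 0.09, adjusted p = 1.49e-06), 1.99-fold lower in rescued than in mutant corneas (adjusted p = 0.000183) and 1.66-fold higher in rescued corneas than in WT (adjusted p = 0.00102).

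Tpm3 and Tpm4 encode tropomyosins found in most cell types, among them tropomyosins of the nonmuscle cytoskeleton. Tpm3 (probe set 17302606) had log2 intensities of 12.07, 11.81 and 11.67 in rescued pools, 12.12, 12.21 and 12.10 in mutant pools and 11.37, 11.20 and 11.77 in WT pools. The mutant pools were the highest, and the rescued and WT pools overlapped. Tpm3 was 1.62-fold higher in mutant corneas than in WT (log2 difference 0.70, SE 0.15, adjusted p = 0.00482). The differences between rescued and mutant (log2 difference −0.29, 95% interval −0.62 to 0.03, adjusted p = 0.238) and between rescued and WT (0.40, interval 0.08 to 0.73, adjusted p = 0.104) did not pass. Without WT replicate 3, the highest WT pool, the difference between rescued and WT was 0.57 with an adjusted p of 0.0202. The other row of Tpm3 (probe set 17399583) was much dimmer, with group means of 7.57 in rescued, 7.67 in mutant and 7.53 in WT corneas, and it did not pass between mutant and WT (log2 difference 0.14, adjusted p = 0.306). RefSeq lists 3 pseudogenes of Tpm3 (Tpm3-rs2, Tpm3-rs3 and Tpm3-rs7), so the gene behind the brighter row is uncertain, and what sets the rows apart was not tested. With the mean of both rows the mutant minus WT difference was 0.42 and still passed (adjusted p = 0.00310).

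Tpm4 (probe set 17548023) was at 11.87, 11.69 and 11.39 in rescued pools, 11.99, 12.02 and 12.17 in mutant pools and 11.29, 11.14 and 11.32 in WT pools. The groups did not overlap, although the lowest rescued pool lay within 0.1 of the highest WT pool. Tpm4 was 1.75-fold higher in mutant corneas than in WT (log2 difference 0.81, SE 0.12, adjusted p = 0.000503). It was 1.33-fold lower in rescued than in mutant corneas (adjusted p = 0.0454) and 1.32-fold higher in rescued corneas than in WT (adjusted p = 0.0490). Both of these calls were lost in 8 of the 9 fits that left out 1 array, with log2 differences of −0.52 to −0.28 and 0.29 to 0.53. They were also lost with the replicate number as a block (adjusted p = 0.0789 and 0.0822), with log2 differences of −0.41 and 0.40. The other row of Tpm4 (probe set 17502378) had 11.39, 11.33 and 11.01 in rescued pools, 12.19, 12.25 and 12.34 in mutant pools and 10.72, 10.87 and 10.80 in WT pools. It moved the same way and further, 2.76-fold higher in mutant corneas than in WT (log2 difference 1.46, SE 0.10, adjusted p = 5.34e-06) and 2.02-fold lower in rescued than in mutant corneas (adjusted p = 0.000230), where all rows were fitted. In that fit it was also 1.36-fold higher in rescued corneas than in WT (adjusted p = 0.0181). The row used for the gene did not pass there (adjusted p = 0.0503). The size of the Tpm4 difference therefore depended on the row.

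**Figure D2:**
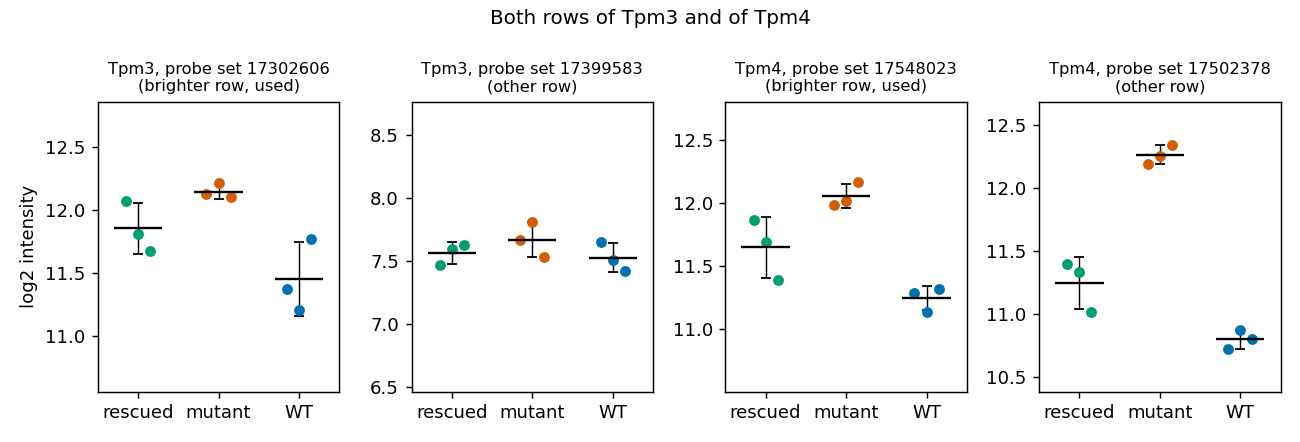
Log2 intensity (vertical axis, same span in each panel) of both array rows of Tpm3 and of Tpm4 in the 3 rescued, 3 mutant and 3 WT pools, with group means and SDs. The dimmer row of Tpm3 shows group means of 7.57, 7.67 and 7.53 for rescued, mutant and WT, and the row of Tpm4 that was not used has the wider gap between mutant (12.26) and WT (10.80).

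Myl9 encodes a regulatory light chain of smooth-muscle and nonmuscle myosin II, the subunit whose phosphorylation switches the motor on. Myl9 (probe set 17378663) had log2 intensities of 9.91, 10.12 and 9.75 in rescued pools, 11.10, 11.29 and 11.11 in mutant pools and 9.03, 9.29 and 8.91 in WT pools. The groups stood in the order of Tpm1, mutant highest and WT lowest, with no overlap. Myl9 was 4.26-fold higher in mutant corneas than in WT (log2 difference 2.09, SE 0.12, adjusted p = 2.07e-06), 2.36-fold lower in rescued than in mutant corneas (adjusted p = 0.000218) and 1.80-fold higher in rescued corneas than in WT (adjusted p = 0.00184). Tpm1, Tpm2 and Myl9 were the 3 genes whose calls held in all 3 comparisons under each of the 21 alternatives.

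Mylk encodes the calcium- and calmodulin-dependent kinase that phosphorylates the regulatory light chain, and it went the opposite way to Myl9. Mylk (probe set 17325159) was at 7.73, 7.49 and 7.81 in rescued pools, 6.94, 7.40 and 7.30 in mutant pools and 8.16, 8.16 and 8.16 in WT pools. WT was the highest group and mutant the lowest, again with rescued between them and no overlap. Mylk was 1.93-fold lower in mutant corneas than in WT (log2 difference −0.95, SE 0.12, adjusted p = 0.000254), the 512th lowest difference among the 22180 genes. It was 1.38-fold higher in rescued than in mutant corneas (adjusted p = 0.0341) and 1.40-fold lower in rescued corneas than in WT (adjusted p = 0.0281). Leaving out 1 array ended the first of these calls in 7 of 9 fits and the second in 5 of 9, with log2 differences of 0.33 to 0.56 and −0.55 to −0.39. Mylk lay at the 56.5th percentile of mean intensity over all genes, so its differences rest on a dimmer signal than those of Myl9 (88.0th percentile), and a dim probe set understates a fold. As a block, the replicate number, which does not pair the pools, left the rescued minus mutant difference at 0.46. The call between rescued and mutant ended (adjusted p = 0.0576).

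Myh9, Myh10 and Myh14 encode the heavy chains of nonmuscle myosin IIA, IIB and IIC. Myh9 (probe set 17318830) had log2 intensities of 11.86, 12.08 and 11.68 in rescued pools, 12.69, 12.68 and 12.56 in mutant pools and 11.54, 11.56 and 11.54 in WT pools. The mutant pools were highest and the WT pools lowest, without overlap. Myh9 was 2.14-fold higher in mutant corneas than in WT (log2 difference 1.10, SE 0.09, adjusted p = 2.16e-05) and 1.71-fold lower in rescued than in mutant corneas (log2 difference −0.77, adjusted p = 0.000782). The difference between rescued and WT (log2 difference 0.33, SE 0.09, 95% interval 0.11 to 0.54) only just passed and was lost in 8 of 9 fits without 1 array, where it ranged between 0.22 and 0.42. The lowest value came without rescued replicate 2.

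Myh10 (probe set 17251370) was at 8.21, 8.36 and 8.58 in rescued pools, 8.16, 7.98 and 7.99 in mutant pools and 8.26, 8.19 and 8.20 in WT pools. Its difference between mutant and WT did not pass (log2 difference −0.17, 95% interval −0.38 to 0.04, adjusted p = 0.213), although each mutant pool lay below each WT pool. It was 1.27-fold higher in rescued than in mutant corneas (log2 difference 0.34, SE 0.09, adjusted p = 0.0424). That call was lost in 8 of 9 fits without 1 array (0.24 to 0.43), after centring on the array medians (adjusted p = 0.0525) and with the replicate number as a block (adjusted p = 0.0777). The block left the log2 difference at 0.34. Rescued and WT pools overlapped (log2 difference 0.17, interval −0.04 to 0.38, adjusted p = 0.301).

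Myh14 (probe set 17490328) was at 10.07, 10.33 and 10.39 in rescued pools, 9.81, 9.88 and 9.85 in mutant pools and 10.31, 10.37 and 10.19 in WT pools. The mutant pools were the lowest, and rescued and WT pools overlapped. Myh14 was 1.36-fold lower in mutant corneas than in WT (log2 difference −0.44, SE 0.09, adjusted p = 0.00387) and 1.34-fold higher in rescued than in mutant corneas (log2 difference 0.42, SE 0.09, adjusted p = 0.0132). The call between rescued and mutant was lost without mutant replicate 1 (adjusted p = 0.0517) or rescued replicate 3 (adjusted p = 0.0530). The interval of the difference between rescued and WT ran between −0.22 and 0.18 (log2 difference −0.02, adjusted p = 0.911).

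Myh11 encodes the heavy chain of smooth-muscle myosin and is a marker of differentiated smooth muscle. Myh11 (probe set 17328368) had log2 intensities of 7.67, 7.86 and 7.77 in rescued pools, 8.18, 7.99 and 8.19 in mutant pools and 7.68, 7.67 and 7.70 in WT pools. Mutant pools were the highest, and rescued and WT pools overlapped. It was 1.35-fold higher in mutant corneas than in WT (log2 difference 0.44, SE 0.08, adjusted p = 0.00156) and 1.28-fold lower in rescued than in mutant corneas (log2 difference −0.35, SE 0.08, adjusted p = 0.0135). The call between rescued and mutant was lost without mutant replicate 1 (adjusted p = 0.0564) or mutant replicate 3 (adjusted p = 0.0571). Between rescued and WT the log2 difference was 0.08 (interval −0.09 to 0.25, adjusted p = 0.550).

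**Figure D3:**
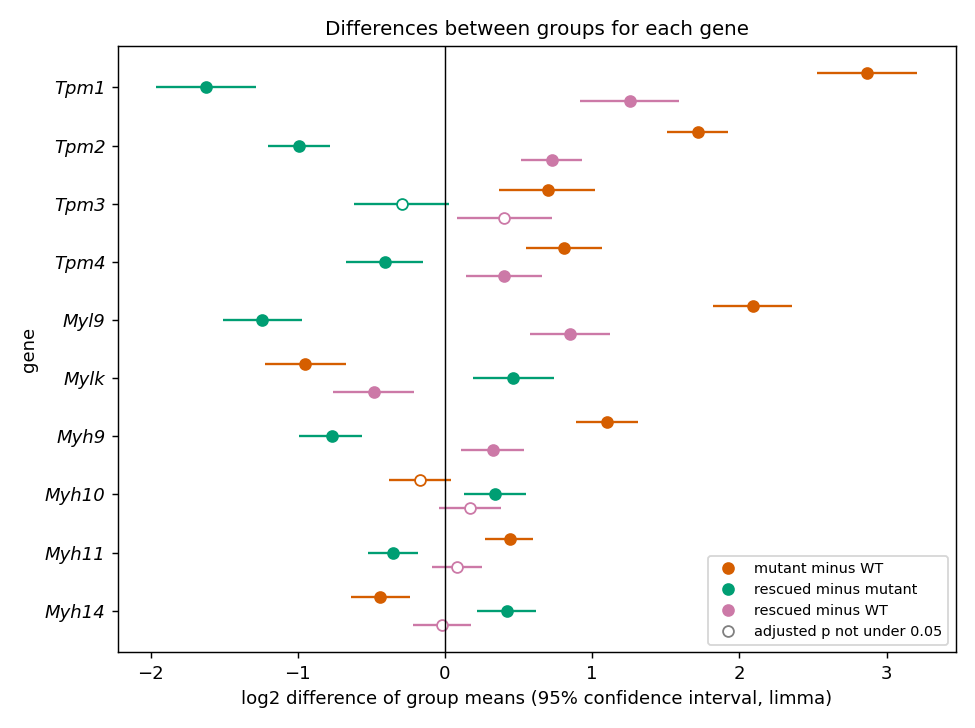
Log2 difference of group means (horizontal axis) for each gene (vertical axis) in 3 comparisons, with 95% confidence intervals from limma; filled points had an adjusted p under 0.05 and open points did not. Mutant minus WT runs between −0.95 for Mylk and 2.87 for Tpm1, and rescued minus mutant between −1.62 for Tpm1 and 0.46 for Mylk.

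The rescued minus mutant difference was set against the mutant minus WT difference for the 8 genes that passed in both comparisons. On the log2 scale it came to 49.0% for Mylk, 50.6% for Tpm4, 56.3% to 59.4% for Tpm1, Tpm2 and Myl9, 70.3% for Myh9, 80.9% for Myh11 and 94.9% for Myh14. On the linear scale the order was another: 40.9% for Mylk, 57.5% for Tpm4, 71.4% for Tpm2, 75.4% for Myl9, 77.8% for Myh9, 78.1% for Tpm1, 83.2% for Myh11 and 94.1% for Myh14. These shares reuse the mutant arrays in both differences, and differences between shares were not tested. Asking for a call between rescued and mutant also favours larger shares. Tpm3, which passed between mutant and WT but not between rescued and mutant, had 42.2% on the log2 scale and 48.1% on the linear scale. The rescued pools also varied among themselves. Rescued replicate 3 had the lowest Srf (8.45), the lowest Tpm1 (9.59), Tpm2 (10.01), Tpm3 (11.67), Tpm4 (11.39), Myl9 (9.75) and Myh9 (11.68), and the highest Mylk (7.81), Myh10 (8.58) and Myh14 (10.39) of the 3. Rescued replicate 2 had the highest Srf (9.45) together with the highest Tpm1 (10.26), Tpm2 (10.36), Myl9 (10.12) and Myh9 (12.08) and the lowest Mylk (7.49). Replicate 1 had the highest Tpm3 (12.07) and Tpm4 (11.87) and the lowest Myh10 (8.21), Myh11 (7.67) and Myh14 (10.07), so those genes did not follow the order of Srf. With 3 pools this order is a description only.

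Balances between paralogues were compared within arrays as the log2 difference of 2 genes. Its level carries no meaning, and a shift shows unequal change of the 2 probe sets, which need not be unequal change of the genes. Even rows of 1 gene differed in mutant minus WT, with 0.81 and 1.46 for Tpm4 and 0.70 and 0.14 for Tpm3. Tpm1 minus Tpm3 was −1.93 ± 0.34 (SD, n = 3) in rescued, −0.61 ± 0.03 in mutant and −2.78 ± 0.15 in WT corneas, so that Tpm1 moved further up than Tpm3 in mutant corneas by 2.18 on the log2 scale, with no overlap of pools. Tpm1 minus Tpm4 shifted by 2.06 and Tpm2 minus Tpm4 by 0.91 between mutant and WT. With the mean of both rows of Tpm3 and Tpm4 these shifts were 2.46, 1.74 and 0.58. On these probe sets the differences of Tpm1 and Tpm2 were larger than those of Tpm3 and Tpm4. The Tpm2 difference (1.72) was nearer to that of the other Tpm4 row (1.46).

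Among the heavy chains, Myh9 minus Myh14 was 1.61 ± 0.28 in rescued, 2.80 ± 0.08 in mutant and 1.26 ± 0.08 in WT corneas, a shift of 1.54 between mutant and WT and of −1.19 between rescued and mutant. Myh10 minus Myh9 shifted by −1.27 between mutant and WT, and Myh11 minus Myh9 by −0.66. In all 6 balances the mutant pools lay apart from the WT pools and from the rescued pools. Over the 6 pairs and 3 comparisons the exact two-sided permutation test gave p = 0.10 for these differences, the smallest that 3 against 3 pools allow (adjusted p = 0.12 over 18 tests), so that no balance could pass. The balances share genes. Each heavy chain balance holds Myh9, whose own log2 difference was 1.10 between mutant and WT, beside −0.17 for Myh10. As single genes, all 10 already had mutant pools apart from the WT and the rescued pools, and no share over all gene pairs was formed.

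**Figure D4:**
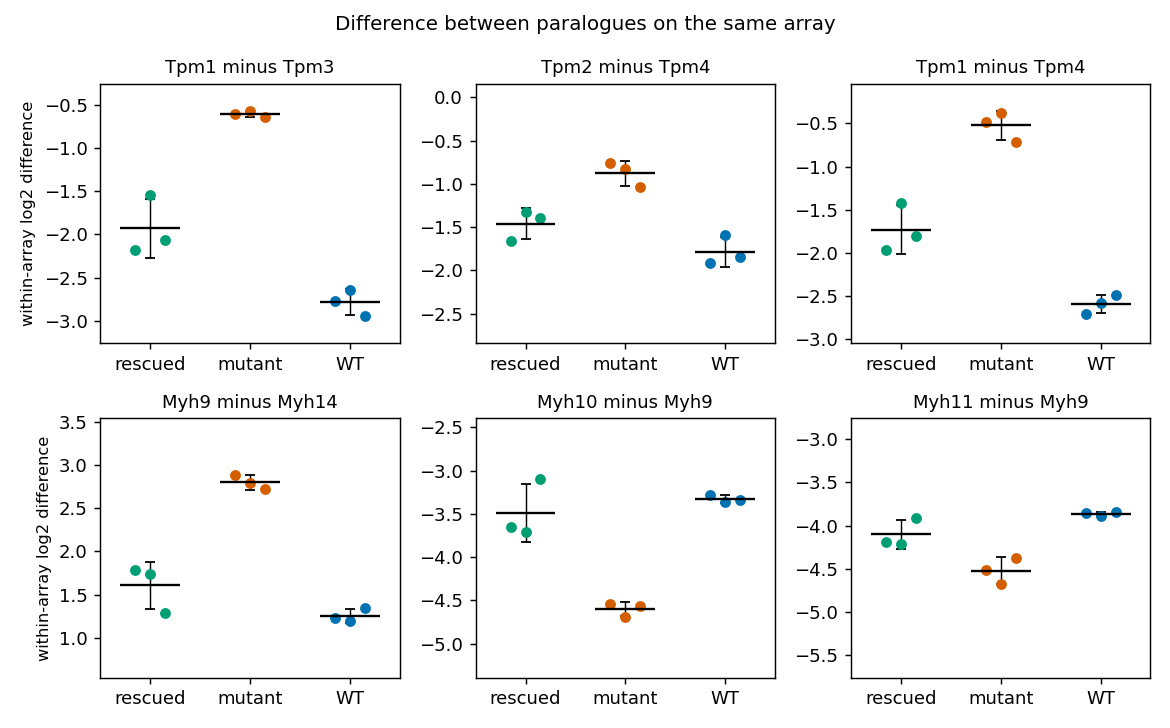
Log2 difference between 2 genes on the same array (vertical axis, same span in each panel) in the 3 rescued, 3 mutant and 3 WT pools, with group means and SDs. Mutant pools stand apart in every panel: Myh9 minus Myh14 is 2.80 in mutant corneas, with 1.61 in rescued and 1.26 in WT corneas. Genes recur between panels, so the panels are not independent.

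Other genes of the actomyosin system were described from 5 lists, whose counts stand beside the 31.6% of all genes called between mutant and WT and the 13.3% called between rescued and mutant. Of 24 measured further myosin II light chains and regulators of light chain phosphorylation, 6 were higher and 5 were lower in mutant corneas than in WT, with a median log2 difference of 0.02. Rhob and Rhoc encode small GTPases that regulate the actin cytoskeleton, and they moved in opposite directions. Rhob was 2.52-fold lower (log2 difference −1.33, adjusted p = 4.84e-06) and Rhoc 1.56-fold higher (0.64, adjusted p = 0.000234) in mutant corneas. Dapk1, the gene for a death-associated kinase, was 1.74-fold lower (adjusted p = 3.50e-05). Of the other light chain genes, chosen after their values were seen, Myl6 was 1.44-fold and Myl12a 1.32-fold higher, while Myl12b was 1.26-fold and Myl6b 1.20-fold lower. Between rescued and mutant corneas 3 of the 24 were higher, among them Rhob (1.51-fold, adjusted p = 0.00230) and Dapk1 (1.39-fold, adjusted p = 0.00275), and 2 were lower.

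Of 19 tropomyosin partners on the thin filament, 5 were higher and none was lower in mutant corneas, and the median was 0.06. The largest differences were in calponin and caldesmon genes, whose products bind actin beside tropomyosin and restrain myosin in smooth muscle. Cnn1 was at least 8.58-fold higher (log2 difference 3.10, SE 0.27, adjusted p = 2.52e-05), the bound reflecting a WT mean below the median of all rows. Cald1 was 5.56-fold higher (adjusted p = 6.03e-07), with log2 intensities of 9.35, 9.49 and 9.01 in rescued pools, 10.78, 10.79 and 10.74 in mutant pools and 8.34, 8.28 and 8.26 in WT pools. Cnn2 was 3.34-fold higher (adjusted p = 1.43e-05). Of the 19, 4 were lower in rescued than in mutant corneas, led by Cnn1 (4.38-fold), Cald1 (2.80-fold) and Cnn2 (2.11-fold), and 1 was higher.

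Of 19 striated muscle genes for heavy chains, light chains and myosin-binding protein C, 1 was higher and 1 was lower in mutant corneas than in WT, with a median of −0.02. In 16 of the 19 every group mean lay below the median of all rows, so the few calls say little about them. The higher one was Myl7, which encodes the regulatory light chain of the cardiac atrium. Myl7 had log2 intensities of 8.23, 8.55 and 7.72 in rescued pools, 10.49, 9.87 and 9.62 in mutant pools and 6.21, 6.19 and 6.10 in WT pools, with no overlap between groups. It was at least 14.2-fold higher in mutant corneas than in WT (log2 difference 3.82, SE 0.24, adjusted p = 3.07e-06), 3.54-fold lower in rescued than in mutant corneas (adjusted p = 0.00101) and also higher in rescued corneas than in WT (log2 difference at least 2.00, since the WT mean lay below the median of all rows; adjusted p = 0.000719). Its difference between mutant and WT exceeded that of each of the 10 tropomyosin and myosin genes. Myl3, a ventricular light chain gene, was at least 1.25-fold lower (adjusted p = 0.0165).

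Unconventional myosins, single-headed or cargo-carrying motors outside myosin II, had 9 of 23 genes higher and 4 lower in mutant corneas, with a median of 0.03. Myo5a, a motor of vesicles and pigment granules, was 2.35-fold higher (adjusted p = 5.34e-05), Myo6, a motor that walks towards the minus end of actin, was 2.20-fold lower (adjusted p = 3.67e-06), and Myo1f, known from leukocytes, was at least 2.10-fold higher (adjusted p = 4.17e-05). Of SRF and its cofactors, 4 of 7 were higher and none was lower. Srf was 2.93-fold, the ternary complex factor gene Elk3 1.83-fold (adjusted p = 1.63e-05) and Mrtfb 1.32-fold higher (adjusted p = 0.00114). Myocd, the gene for the smooth-muscle cofactor myocardin, was below the median of all rows in each group mean (6.62 in rescued, 6.74 in mutant and 6.59 in WT corneas). Between rescued and mutant corneas, Srf (3.18-fold) and Mrtfb (1.20-fold) were lower.

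**Figure D5:**
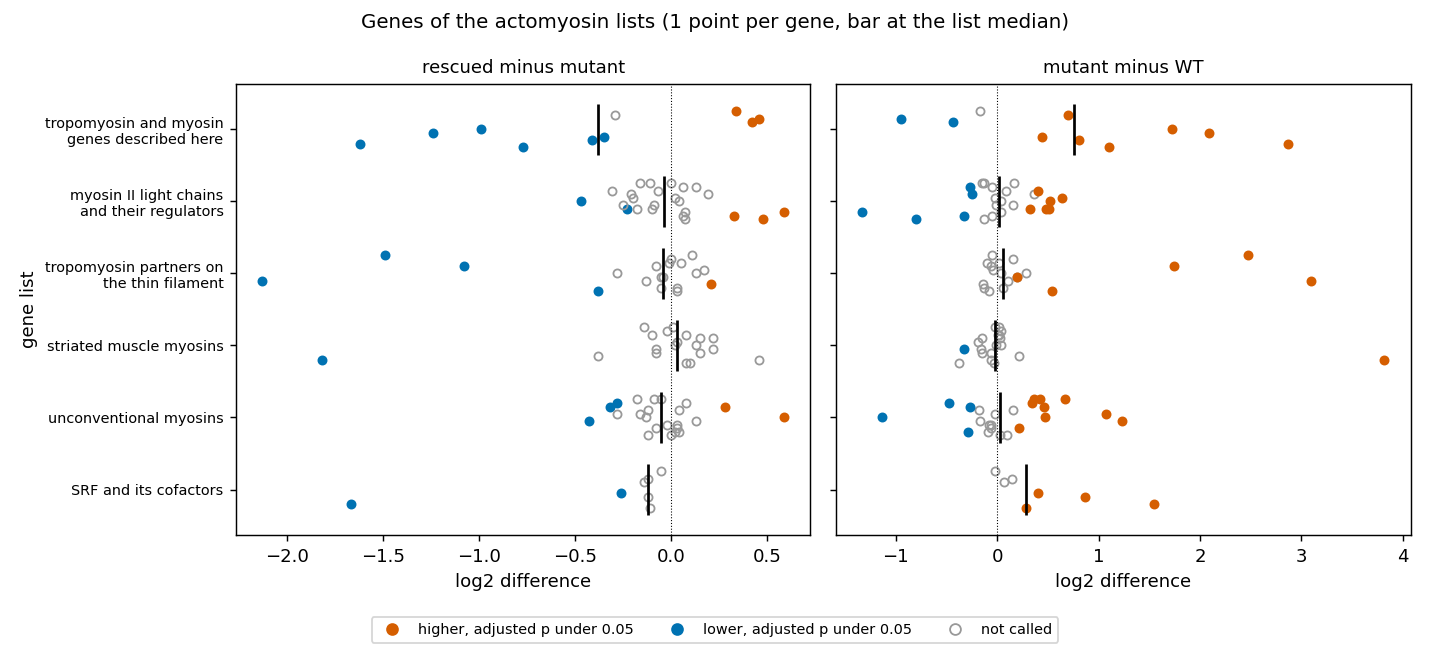
Log2 difference (horizontal axis) of each gene of 6 gene lists (vertical axis) between rescued and mutant corneas on the left and between mutant and WT corneas on the right; filled points had an adjusted p under 0.05, and bars mark list medians. The medians of the 4 lists of other actomyosin genes lie between −0.02 and 0.06 for mutant minus WT, beside 0.75 for the tropomyosin and myosin genes described here. The medians are not like for like, since those 10 genes were chosen with earlier results known. All group means lay below the median of all rows in 0 of the 10. The same held for 3 of 24 light chain and regulator, 4 of 19 thin filament, 16 of 19 striated muscle and 7 of 23 unconventional myosin genes.

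Blood endothelial and macrophage markers were mostly higher in mutant corneas than in WT, while the keratocyte, skeletal muscle and lens lists had no higher call. Pericyte and vascular smooth muscle markers included 6 of 12 that passed as higher and 1 as lower (Notch3, log2 difference −0.53) in mutant corneas than in WT. Their mean log2 intensity was 7.69 to 7.85 in rescued pools, 8.05 to 8.13 in mutant pools and 7.13 to 7.25 in WT pools, the same group order as Tpm1, Tpm2, Tpm4, Myl9 and Myh9. Rgs5, a defining pericyte marker, was at 9.81 ± 0.15 in rescued, 10.71 ± 0.51 in mutant and 5.91 ± 0.25 in WT corneas (SD, n = 3 each), whereas Pdgfrb was at 9.58 ± 0.19, 9.70 ± 0.14 and 9.75 ± 0.18 in the same groups. Blood endothelial markers (11 of 12 higher in mutant corneas) had means of 7.51 to 7.87 in rescued, 8.01 to 8.40 in mutant and 6.61 to 6.66 in WT pools. That is the same group order again. Macrophage markers (11 of 12 higher) had means of 7.90 to 8.37, 8.07 to 8.65 and 7.30 to 7.36 in rescued, mutant and WT pools, with 1 of 12 higher and 1 lower between rescued and mutant. Of 12 skeletal muscle markers, 8 or 9 lay below the median of all rows on every array, and none was higher in any comparison. Corneal epithelial markers, of which 5 of 8 were lower and 2 higher in mutant corneas than in WT, had means of 12.89 to 12.93 in rescued, 12.54 to 12.58 in mutant and 12.83 to 12.86 in WT pools. Mutant pools were also the lowest for Mylk, Myh10 and Myh14, although Mylk was highest in WT pools and these markers in rescued pools. Keratocyte markers, of which 3 of 9 were lower in mutant corneas and none passed between rescued and mutant, had means of 11.50 to 11.65 in rescued, 11.22 to 11.53 in mutant and 11.17 to 11.77 in WT pools. Lens markers, of which 7 of 12 were lower in mutant corneas, had means of 7.66 to 7.93 in rescued, 7.78 to 8.44 in mutant and 8.66 to 8.99 in WT pools. The part of each of these cell types in the results was not tested. Pools also differed in the mean of 3 Y-linked genes, 7.16 to 9.77 except for 5.34 in WT replicate 1 and 5.15 in WT replicate 3. Only in these WT pools did all 3 genes lie below the median of all rows. The sex of the pooled mice is therefore partly confounded with the WT group. As a covariate the Y-linked mean left the 9 calls between mutant and WT in place. It ended the calls of Myh10 between rescued and mutant (adjusted p = 0.0610) and of Mylk and Myh9 between rescued and WT (adjusted p = 0.0588 and 0.121), and Tpm3 then passed between rescued and WT (log2 difference 0.53, adjusted p = 0.0412).

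For each of the 10 genes the gene outside them with the most similar profile over the 9 arrays was found by Pearson correlation, with groups included and with the arrays shared by all genes. With 3 groups that differ widely, high values are common. Tpm1 was most like Epgn (r = 0.999), Tpm2 like Sema7a (0.998), Myh9 like Slc20a1 (0.998), Myl9 like Sgms1 (0.997), Mylk like Cxadr (0.991), Tpm4 like Cyp7b1 (0.987), Myh14 like Mau2 (0.987), Myh11 like Cebpb (0.981), Myh10 like Tiam1 (0.975) and Tpm3 like Lcn2 (0.966). Epgn, which encodes the epidermal growth factor receptor ligand epigen, had group means of 11.40 in rescued, 12.98 in mutant and 10.14 in WT corneas, a mutant minus WT difference of 2.84 beside the 2.87 of Tpm1.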

How the data were processed

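Total RNA from pooled corneas was labelled with biotin and hybridised to single-colour Affymetrix arrays, per the labels' protocols. The authors deposited normalised log2 intensities; no source used here gives the method, and base 2 was inferred from the range (2.14 to 14.3). Of 41345 rows, 23521 had exactly 1 symbol in the platform annotation, 1814 had several and 16010 were not listed; the brightest row stood for each of 22180 genes, without a filter on intensity. All 9 arrays were fitted with limma 3.58.1 (R 4.3.3; lmFit, contrasts, eBayes; two-sided; Benjamini-Hochberg over all genes; called at an adjusted p under 0.05), and the fit was tested on simulated data. SEs are moderated. Where the lower group mean lay below 6.77, the median of all rows, folds are given as lower bounds. Arrays carry no read depth, and their number limits the precision. Members, gene lists and tests were chosen with earlier results of these data known. Of each list, up to 3 called genes with the largest mutant minus WT difference were named. Lists were measured in 24 of 28, 19 of 19, 19 of 19, 23 of 24 and 7 of 7 genes. Same-numbered pools of different groups had deviations that correlated between −0.02 and 0.06, so the replicate numbers do not pair the pools. Alternatives were quantile normalisation, median centring, intensity filters, mean of rows, trend and robust options, 6 arrays only, array weights, replicate block, no moderation, a Y-linked covariate, adjusted p under 0.01 and leaving out each array. Figures were drawn with matplotlib 3.10.9 (Python 3.11.15).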

Additional observations from a re-analysis of the deposited data

How the results depend on the processing

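Each of the 10 genes was refitted in 3 comparisons under 21 alternatives, 630 values in all. The 210 values for mutant minus WT kept their direction and their side of the threshold. Of the values of genes called with all arrays, 45 of 189 lost their call between rescued and mutant and 32 of 126 between rescued and WT. Tpm3 gained a call between rescued and WT in 2 fits. The lost calls were of Tpm4, Mylk, Myh9, Myh10, Myh11 and Myh14. Myh14 between rescued and WT turned to 0.07 without rescued replicate 1 and to 0.02 without WT replicate 2, (lowest value −0.08 without 1 array, and −0.09 with the Y-linked covariate), and did not pass in any fit. Leaving out 1 array at a time, 9 of the 10 genes were called between mutant and WT each time, 4 to 8 between rescued and mutant (4 without mutant replicate 1, 5 without mutant replicate 3 or rescued replicate 3) and 3 to 6 between rescued and WT (3 without rescued replicate 1 or 2 or WT replicate 1 or 2). Over all genes the counts were then 5913 to 6948, 1808 to 2795 and 1812 to 2975 for mutant minus WT, rescued minus mutant and rescued minus WT, against 7004, 2959 and 3042 with all arrays; such fits have fewer samples. At an adjusted p under 0.01, 4 genes were called between rescued and mutant and 3 between rescued and WT, with 1420 and 1374 over all genes. Without moderation Tpm4, Mylk and Myh9 lost their calls between rescued and WT (adjusted p = 0.118, 0.0857 and 0.102). The cause was not tested. With the replicate number as a block, 9, 6 and 5 of the 10 genes were called and 6687, 2507 and 2656 of all genes. The replicate numbers do not pair the pools, and the block estimates more terms from the same 9 arrays. No array gives signal over background for a row, so differences of dim rows such as Mylk, Myh10 and Myh11 may be understated. Summarised over all genes, the shift of each comparison under quantile normalisation and centring was at most 0.02. Single genes moved further, such as Mylk between mutant and WT, from −0.95 to −0.90 under quantile normalisation.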
